A study of Mus musculus with 15 samples.

Results

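The striatum of KI-96 mice was compared with that of WT mice over every autosomal gene in a table of read counts. KI-96 contributed 4 libraries and WT contributed 7. The members were the genes that a mouse annotation of build GRCm38 places on the numbered chromosomes, 49858 of the 54232 genes in the table. Of these, 17641 held enough reads to be tested with all libraries, 16855 held reads but too few, and 15362 held no read in any KI-96 or WT library. Because KI-96 replicate 3 stood apart from all other libraries, the counts and list medians are also given without it, with 17893 autosomal genes tested. The value of a single gene without it is given where the fold change moved by over 1.5 times.

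All mice were 6 months old, and each library came from the striatum of a separate animal. WT carries no mutation named in the labels, and KI-96 is given as a genotype name alone. The title of the series places the mice among knock-in models of Huntington's disease and names RAN translation, in which ribosomes start on an expanded repeat without a start codon. The sources used here do not give the length of the repeat, the number of copies of the altered allele, the strain or the sex. Another genotype, E1 (4 libraries, also aged 6 months and also given by name alone), entered the fit to share the estimate of the spread.

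Huntington's disease follows from a lengthened run of CAG codons in the first exon of the huntingtin gene. The striatum, made up largely of medium spiny projection neurons that release GABA, is the region it strikes hardest. In mouse models these neurons typically lose RNA of their identity genes, among them dopamine receptors, neuropeptides and phosphodiesterases, while silenced developmental genes become detectable.

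Htt encodes huntingtin and lies on chromosome 5 from 34761740 to 34912534 on the plus strand. Its reference coding sequence in the first exon (chr5:34761907-34762109, GRCm38, plus strand, GENCODE transcripts) is printed because it holds the repeat that is lengthened in Huntington's disease knock-in mice. The capitals mark the run of 7 glutamine codons in the reference mouse, 6 of them CAG and 1 CAA, at positions 34761958 to 34761978.
Htt exon 1, coding part: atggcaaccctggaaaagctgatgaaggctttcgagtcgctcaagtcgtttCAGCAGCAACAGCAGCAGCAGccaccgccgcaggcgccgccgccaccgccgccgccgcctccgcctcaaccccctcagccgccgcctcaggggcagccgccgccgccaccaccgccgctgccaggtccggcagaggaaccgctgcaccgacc
The deposited counts hold no sequence, so the repeat of the KI-96 mice was not measured here.

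Levels are given as CPM, counts scaled to a common library size. Htt stood at 178, 185, 242 and 144 CPM in KI-96 replicates 1 to 4, and the 7 WT libraries ran from 169 through a median of 174 to 197 CPM. The groups overlapped, with replicate 3 above every WT library and replicate 4 below every one. KI-96 minus WT gave a log2 fold change of 0.06 (SE 0.11, edgeR adjusted p = 0.862), and an exact permutation test of log2 CPM gave p = 0.697, two-sided. Without replicate 3 these were -0.08 (SE 0.08) and an exact permutation p of 0.325. The smallest p these designs allow is 0.00303 for 330 splits and 0.00833 for 120. Against E1, whose libraries ran from 135 to 148 CPM, the difference on the log2 scale was 0.40 (SE 0.12, edgeR adjusted p = 0.212).

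Genes next to Htt on chromosome 5 were followed because a knock-in allele carries its flanking DNA with it. Of 23 tested neighbours, 13 had positive fold changes, and the median was 0.03 (15 of 24 and 0.07 without replicate 3). They ran from -0.29 to 0.52, with 3 higher and 0 lower at an unadjusted p under 0.05. Without replicate 3 they ran from -2.07 to 0.41, with 2 higher and 2 lower at that p. In 1 of the 24 every remaining KI-96 library lay below every WT library, against 1.95% of all autosomal genes. Within 1 Mb of Htt 2 of 35 tested genes had an unadjusted p under 0.05 (5.71%), and within 10 Mb 25 of 205 did (12.2%), against 10.5% of all autosomal genes. Without replicate 3 these were 2 of 35 (5.71%) and 29 of 205 (14.1%), against 10.9%. Letm1, a mitochondrial ion exchanger, had the smallest p of the neighbours with all libraries. It stood at 114, 96.7, 104 and 89.8 CPM in KI-96 and between 75.4 and 90.0 CPM in WT, a log2 fold change of 0.27 (SE 0.08, edgeR adjusted p = 0.313).

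With all 4 KI-96 libraries, no autosomal gene passed the threshold, an edgeR adjusted p under 0.05: 0 rose and 0 fell (0% of 17641 in each direction). Before adjustment, 1030 genes had higher levels in KI-96 at a p under 0.05 (5.84%) and 820 had lower levels (4.65%). DESeq2 called 30 genes higher and 32 lower, and limma-voom called 0 in either direction. In 115 genes every KI-96 library lay above every WT library (0.652%), and in another 115 every one lay below (0.652%), 1.3% in either direction. Over all autosomal genes the median log2 fold change was -0.01, and 48% were positive.

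Without replicate 3, 1 gene rose and 1 fell (0.00559% of 17893 in each direction). The gene that rose was Alb, which encodes serum albumin, a product of liver cells, and the one that fell was the pseudogene Tmem181b-ps. Unadjusted, 995 genes had higher levels (5.56%) and 955 lower levels (5.34%) at a p under 0.05. Every one of the 3 remaining KI-96 libraries lay above all WT libraries in 376 genes (2.1%) and below them in 349 (1.95%), 4.05% in either direction. DESeq2 called 66 higher and 37 lower, and limma-voom called 0 and 1, the latter again Tmem181b-ps. The DESeq2 calls depended on the library: 29 genes were called both with and without it, 46.8% of the first list and 28.2% of the second. Of the genes at an unadjusted edgeR p under 0.05 with all libraries, 52.1% kept that p and their sign without replicate 3, which was 50.1% of the corresponding genes in the smaller fit.

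Total counts ran from 14678565 to 23373551 in KI-96 and from 17281603 to 26388542 in WT. KI-96 replicate 3 lay at 73.0 on the first principal component (18.3% of the variance), and the other 14 libraries lay between -34.7 and 23.1. In that library 5350 of 11438 autosomal genes with at least 5 CPM (46.8%) were outside the range of all other libraries, 2187 above it and 3163 below. For any other library that share was 3.26% to 20%. Its levels followed transcript size: relative to the other 3 KI-96 libraries the median log2 difference was -0.50 for genes with up to 3119 exonic bases and 0.27 for those with over 7362. Ribosomal and small noncoding RNA together took 1.89% of its counts and 0.0913% to 0.492% of those of the other 14. Ribosomal RNA alone took 1.08% of its counts and 0.0367% to 0.244% of those of the others. Rn7sk, the RNA that holds back the elongation kinase P-TEFb, stood at 712 CPM in it and at 0.856 to 33.1 CPM elsewhere. Bc1, a small cytoplasmic RNA of neurons, stood at 431 CPM. Mitochondrial genes gave 3.62% of its counts, below the 4.57% to 6.37% of the others.

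The groups also differed in reads from the Y chromosome, which the labels do not explain since they give no sex. Over 4 Y-linked genes, WT replicates 2 to 7 held 2680 to 5755 reads, while WT replicate 1, all KI-96 libraries and all E1 libraries held at most 2. Xist, an X-linked RNA of female cells, ran the other way, at 0.269 to 3.00 CPM in WT replicates 2 to 7. It stood at 1065.4 CPM in WT replicate 1, 891 to 1625.8 CPM in KI-96 and 933 to 1203.9 CPM in E1. By both measures WT replicates 2 to 7 read as male and all other libraries as female. Genotype and sex read in this way therefore cannot be told apart except through WT replicate 1. With the Y-linked level as a covariate, 0 autosomal genes passed in either direction, with or without replicate 3. With all 4 KI-96 libraries 0 had passed before the covariate was added. The covariate rests on WT replicate 1 and costs precision. For Alb without replicate 3 the SE went from 0.71 to 1.98, at a log2 fold change of 8.77. A call lost in this way does not show that a difference is absent. KI-96 and E1 do not differ in this respect. With all 4 KI-96 libraries, KI-96 minus E1 called 0 autosomal genes in either direction (0% of 17641), as did KI-96 minus WT. Without replicate 3, Alb passed in KI-96 minus E1 (log2 fold change 8.27, edgeR adjusted p = 0.00522).

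Alb stood out through 3 of the 4 KI-96 libraries. It reached 9.02, 1.71, 0.109 and 19.4 CPM in KI-96 replicates 1 to 4, while 4 WT libraries held no Alb read and the other 3 held 0.0356 to 0.082 CPM. KI-96 libraries held 619 Alb reads in all, 8.69 CPM of their summed counts (exact 95% Poisson interval 8.01 to 9.40, counting error only), and WT libraries held 5. Without replicate 3 it rose by a log2 fold change of 8.02 (SE 0.71, edgeR adjusted p = 0.000214). Alb passed the filter on low counts there through the KI-96 libraries alone, so a difference was required for it to be tested. With all 4 libraries it did not pass that filter, and with no filter it had a log2 fold change of 7.61 (SE 1.15, edgeR adjusted p = 0.130). With limma-voom and no replicate 3 the adjusted p was 0.171. DESeq2 called Alb with all 4 libraries (log2 fold change 7.98, adjusted p = 0.000157) and without replicate 3 (8.30, adjusted p = 1.18e-16). With all 4 it also called Apoa2 (3.15, adjusted p = 0.0137) and Hpx (2.28, adjusted p = 0.0414), 2 other genes of liver cells. Against E1, which held 2 Alb reads, the log2 fold change without replicate 3 was 8.27 (edgeR adjusted p = 0.00522).

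Other genes of liver cells, chosen after the value of Alb and their own values were seen, were high in replicate 4, some also in replicate 1. Mup20, a major urinary protein, had 157 reads in KI-96 replicate 4 and 0 in every other library of the series. Fabp1, the liver fatty acid-binding protein, had 64 reads in replicate 4, 6 in replicate 1, 1 in replicate 2 and 0 elsewhere. Ahsg, the plasma glycoprotein fetuin-A, had 72, 10 and 3 reads in replicates 4, 1 and 2, and 1 read over all WT libraries. Apoa1, the main protein of high-density lipoprotein, stood at 7.54 CPM in replicate 4 and 0.946 CPM in replicate 1, against 0.156 to 0.646 CPM in WT, and its 0.329 CPM in replicate 2 was inside that range. In 10 of 10 such genes, Alb included, replicate 4 had the highest level of all libraries. The genes other than Alb were chosen with their values known, so that count was not a test. In replicate 3 Ahsg, Fgb, Fabp1, Mup20, Serpina1a and Apoc3 were at 0 reads. The genes called higher by edgeR depended on which libraries were kept. Leaving out replicates 1 and 3 left 1, Alb. Leaving out replicates 2 and 3, which keeps the 2 libraries with most Alb reads, gave 5, Alb, Apoa2, Ahsg, Apoa1 and Fgg. Leaving out replicates 3 and 4 gave 8, Alb and 7 that are not among the liver genes named here. The part of liver RNA in this result was not tested.

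**Figure D1:**
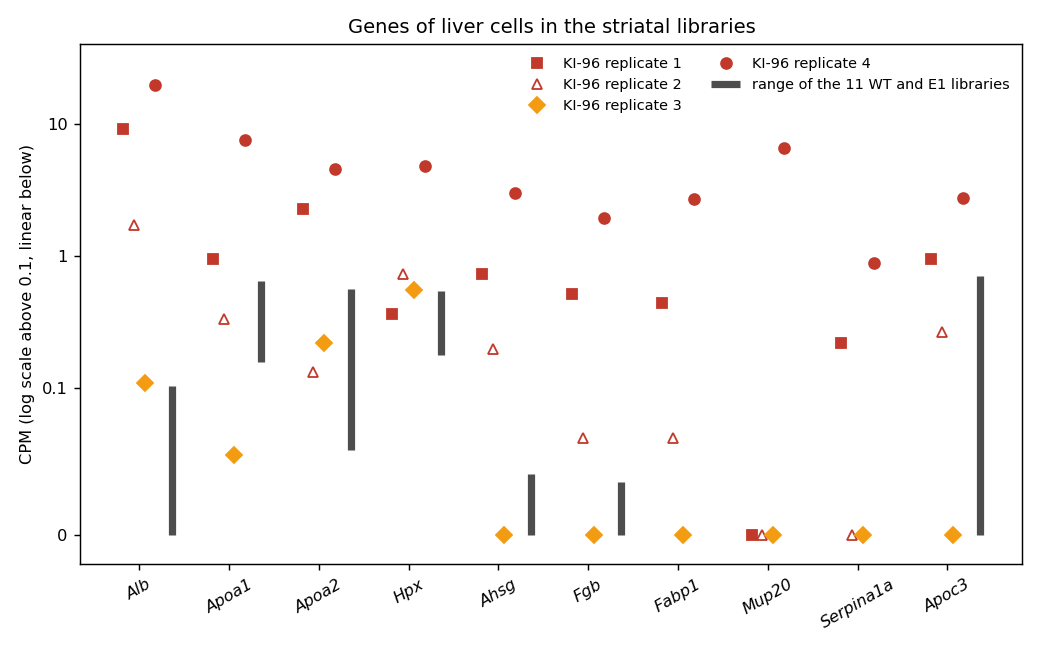
Level of 10 liver genes in each KI-96 library (symbols) beside the range of the 11 WT and E1 libraries (grey bars), in CPM on an axis that is logarithmic above 0.1 and linear below. The genes other than Alb were chosen after their values were seen. Replicate 4 is highest for each gene, reaching 19.4 CPM for Alb, and replicate 3 (diamond) is at 0.546 CPM or less.

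Tmem181b-ps lies on chromosome 17 (6438524 to 6467022, minus strand) and is annotated as a pseudogene of the transmembrane protein gene Tmem181a. Its KI-96 levels were 119, 98.9, 172 and 104 CPM, and WT ran from 163 through a median of 258 to 279 CPM. Replicates 1, 2 and 4 lay below every WT library, while replicate 3 lay above WT replicate 1, the lowest. With all libraries it had a log2 fold change of -0.97 (SE 0.16, edgeR adjusted p = 0.236), and without replicate 3 it fell, with -1.18 (SE 0.15, edgeR adjusted p = 0.00501). With all 4 KI-96 libraries it passed by DESeq2 (adjusted p = 2.34e-05) and with quality weights in limma (adjusted p = 0.00251). It also passed by edgeR with no filter (adjusted p = 0.0131) and without WT replicate 1 (adjusted p = 0.0041). Under the other settings that kept all 4 it did not pass, with an adjusted p of 0.0658 by limma-voom. With the Y-linked covariate, which rests on WT replicate 1, and without replicate 3 it was -0.62 (SE 0.17, edgeR unadjusted p = 0.00229, adjusted p = 1). Leaving out KI-96 replicate 2 as well ended the call (-1.13, adjusted p = 0.0505). E1 libraries held 184 to 242 CPM. Its near copy Tmem181a stood at 59.5 to 75.9 CPM in KI-96 and 63.7 to 70.3 CPM in WT, and Tmem181c-ps was at 1.14 CPM or less in both groups. How reads shared by such copies were assigned is not given, so the level of the pseudogene is uncertain.

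Catspere1 and Catspere2 are neighbours on chromosome 1. Catspere2 encodes an accessory protein of the sperm calcium channel CatSper, and Catspere1 is annotated as an unprocessed pseudogene. Both followed the Y-linked pattern, with KI-96 replicate 3 an exception in Catspere2. Catspere1 had no read in any KI-96 library, 0.0579 CPM in WT replicate 1 and 3.80 to 10.0 CPM in WT replicates 2 to 7. Against a floor of 3 reads over the group, KI-96 was at least 135-fold lower than the WT mean of 5.69 CPM. Catspere2 stood at 5.53, 4.54, 12.2 and 4.75 CPM in KI-96, at 5.96 CPM in WT replicate 1 and at 12.5 to 22.7 CPM in the other WT libraries. In E1 Catspere1 was at 0.0512 CPM or less and Catspere2 at 4.20 to 5.45 CPM. Neither passed the edgeR threshold with all libraries (adjusted p = 0.241 and 0.313) or without replicate 3 (adjusted p = 0.170 and 0.132). DESeq2 called both with all libraries (adjusted p = 2.14e-06 and 0.0456) and without replicate 3 (adjusted p = 5.33e-05 and 5.1e-05). Without WT replicate 1, edgeR called Catspere1 (adjusted p = 9.44e-06). With KI-96 replicate 3 left out as well, it called both (adjusted p = 4.27e-05 and 0.000577).

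**Figure D2:**
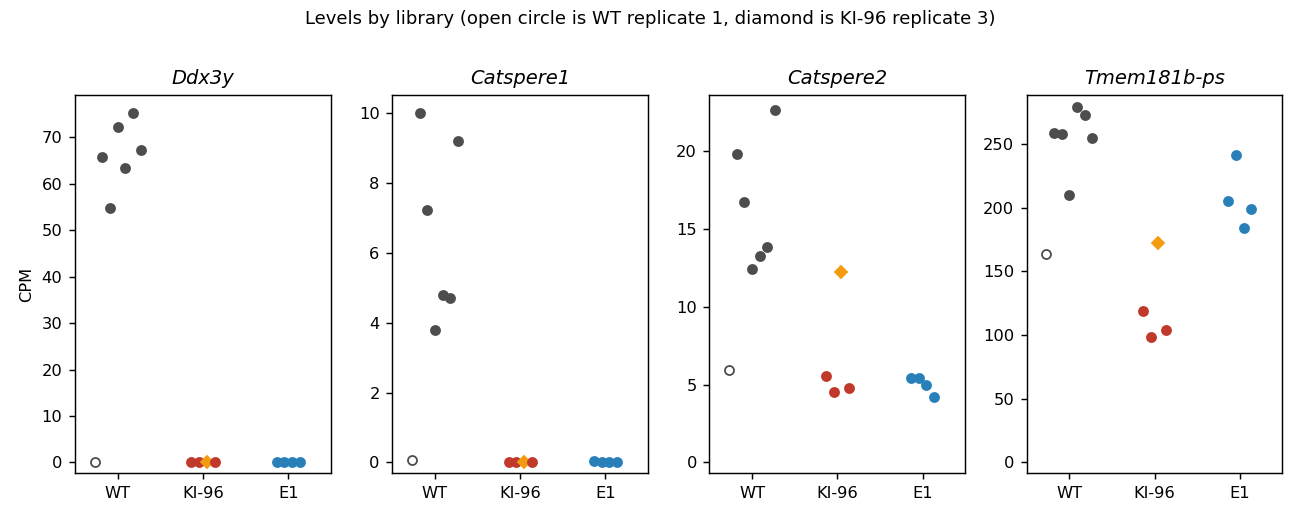
CPM of the Y-linked gene Ddx3y and of 3 autosomal genes in each WT, KI-96 and E1 library. Ddx3y and Catspere1 are near 0 in WT replicate 1 (open circle) and in every KI-96 and E1 library, while Tmem181b-ps is at 98.9 to 172 CPM in KI-96 and 184 to 242 CPM in E1.

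The 10 genes with the smallest p for higher and for lower levels are described as values, since none passed with all 4 libraries (edgeR adjusted p = 0.241 for each of the higher ones and 0.236 to 0.246 for the lower ones). Mfn2, a GTPase that fuses mitochondrial outer membranes, stood at 299, 270, 281 and 219 CPM in KI-96 against 162 to 226 CPM in WT. The log2 difference came to 0.49 (SE 0.10), and replicate 4 alone fell inside the WT range. Rpl3, a protein of the large ribosomal subunit, stood at 682, 349, 462 and 495 CPM against 225 to 361 CPM. The log2 difference came to 0.80 (SE 0.17), and E1 was also high, at 343 to 508 CPM. Kcng1, a potassium channel subunit that modifies other channels, stood at 65.8, 53.6, 68.8 and 44.1 CPM against 21.8 to 40.4 CPM (log2 fold change 0.86, SE 0.19). All 4 KI-96 libraries lay above all WT libraries for Kcng1. The groups were also apart for Gpc1, a cell-surface heparan sulfate proteoglycan (87.5 to 114 against 69.5 to 80.8 CPM), and for Ddx23, an RNA helicase of the spliceosome (99.9 to 122 against 76.4 to 91.2 CPM). They were apart for Med16, a subunit of the Mediator complex (67.6 to 81.3 against 51.0 to 63.5 CPM), and for Slc35e4 (30.6 to 38.0 against 24.0 to 28.7 CPM). Syt9, a calcium sensor of vesicle release, and Myh9, a non-muscle myosin heavy chain, had log2 fold changes of 0.52 (SE 0.12) and 0.49 (SE 0.11). Both overlapped WT, in Syt9 through replicates 1 and 2 and in Myh9 through replicate 4. Ptges3-ps, a processed pseudogene, had 0.59 (SE 0.14).

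Among those with lower levels, Coq10b, a mitochondrial protein that binds coenzyme Q, stood at 13.4, 10.6, 11.6 and 13.3 CPM in KI-96 and at 15.1 to 20.5 CPM in WT. The log2 difference came to -0.55 (SE 0.11), all 4 libraries lay below WT, and it was -0.52 without replicate 3. Against E1 (18.4 to 23.7 CPM) it was -0.81 (edgeR adjusted p = 0.0544). Bbs5, a subunit of the BBSome that sorts membrane proteins to cilia, stood at 10.5, 11.0, 12.8 and 14.2 CPM against 15.2 to 19.5 CPM (log2 fold change -0.51, SE 0.11). Ppp4r4, a regulatory subunit of protein phosphatase 4, stood at 50.4 to 58.1 CPM against 64.7 to 81.7 CPM. For both genes, too, no KI-96 library reached the WT range. Ifrd1, a transcriptional co-regulator, had -0.69 (SE 0.16), and Adi1, an enzyme that recycles methionine, had -1.02 (SE 0.23). Against E1, where Adi1 stood at 21.1 to 33.3 CPM, the value was -0.17 (edgeR adjusted p = 0.778), and WT spanned 29.2 to 73.8 CPM. Plk5, a member of the polo-like kinase family, had -0.89 (SE 0.20), Fgfr1op, a protein of the centrosome, -0.52 (SE 0.12) and Tcp11l2 -0.47 (SE 0.11).

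Leaving out replicate 3 changed which genes led. The genes below were picked without that library, so its distance from the other KI-96 libraries follows in part from the choice. Higher in replicates 1, 2 and 4 were Ftl1, the ferritin light chain that stores iron (35.3, 51.5 and 37.4 against 17.8 to 30.3 CPM in WT), and Lamtor2, a part of the lysosomal Ragulator that recruits mTORC1 (50.0, 54.2 and 48.4 against 35.6 to 41.3 CPM). Phb, a scaffold of the mitochondrial inner membrane, stood at 87.4, 78.6 and 79.5 CPM against 59.0 to 66.1 CPM. In replicate 3 these 3 genes were at 17.3, 31.3 and 56.1 CPM, each below the lowest WT library. Rpl32 and Rpl18, both of the large ribosomal subunit, had log2 fold changes of 0.37 (SE 0.07) and 0.38 (SE 0.08). Ccdc92 (0.35), Extl2, a glycosyltransferase (0.35), and Morf4l1, a chromatin protein (0.40), were similar in size. Adjusted p-values of the genes in this group, Alb and Tmem181b-ps apart, ran from 0.118 to 0.173 by edgeR.

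Of those with lower levels without replicate 3, Prpf39, a splicing factor, and Fancm, a DNA translocase of the Fanconi anaemia pathway, are neighbours on chromosome 12. Prpf39 stood at 45.3, 44.5 and 47.0 CPM in replicates 1, 2 and 4 and 53.2 to 65.2 CPM in WT. Fancm stood at 10.3, 7.96 and 10.4 CPM against 13.1 to 15.4 CPM. Replicate 3 was inside the WT range for both, at 56.0 and 14.6 CPM. Slf1, a DNA repair factor, had a log2 fold change of -0.48 (SE 0.10), Epyc, a small leucine-rich proteoglycan, -0.70 (SE 0.15), and Lnpk, which shapes junctions of the endoplasmic reticulum, -0.34 (SE 0.08).

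**Figure D3:**
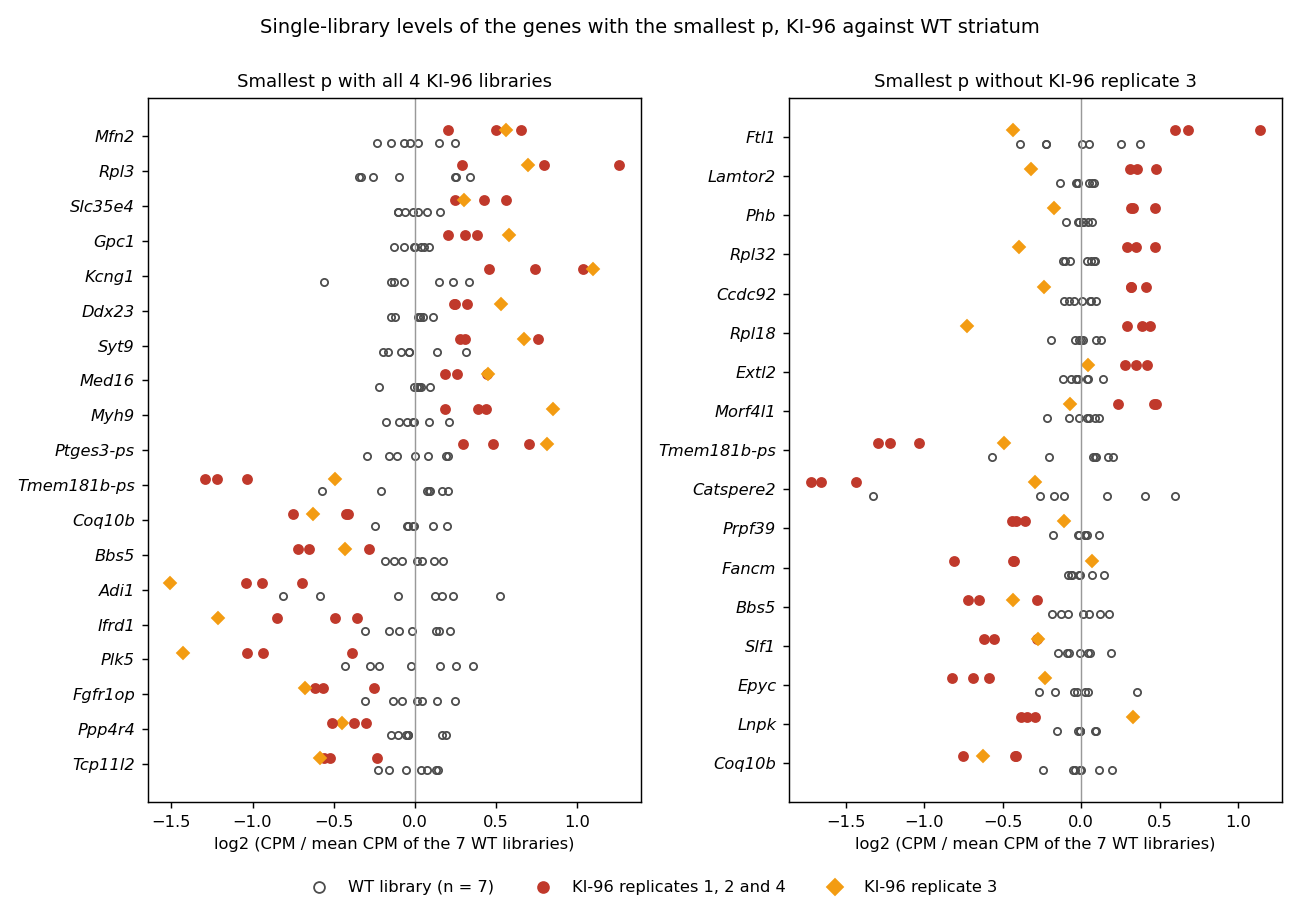
Each library's CPM relative to the WT mean, on a log2 scale, for the genes with the smallest p with all 4 KI-96 libraries (left) and without replicate 3 (right). Alb, Apoa1 and Catspere1 are left out of the plot because libraries at or near 0 would fall off its axis. KI-96 replicate 3 (diamond) sits with the other KI-96 libraries on the left and on the side of WT, or beyond it, for most genes on the right. The left genes were picked from a fit with that library and the right genes from a fit without it. Its placement therefore follows in part from that choice.

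To see which cell types and processes these small differences touched, 40 gene lists were described by counts and medians. No list had a member past the edgeR threshold with all 4 libraries or without replicate 3. Beside each list stand the same figures over all autosomal genes: a median of -0.01, 48% positive, and 5.84% with higher and 4.65% with lower levels at an unadjusted p under 0.05. Without replicate 3 the median and the positive share were again -0.01 and 48%, with 5.56% higher and 5.34% lower at that p. In bulk tissue, fewer cells of a type and less RNA per cell cannot be told apart.

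Genes of medium spiny neurons were high in every library, which fits the labelled tissue. The mean log2 CPM of 37 shared identity genes was 8.27, 8.44, 8.12 and 7.89 in KI-96 and ran from 7.96 to 8.46 in WT. Of the 37, 21 were positive, at a median of 0.02 and a range from -0.67 to 0.55, and without replicate 3 the count was 22 and the median 0.06. Pde2a, a phosphodiesterase, had 0.55 (SE 0.20) and, without replicate 3, 0.34 (SE 0.20). Gnal, the G protein subunit coupled to dopamine receptors, had 0.30 (SE 0.14) and Arpp21, a cyclic AMP-regulated phosphoprotein, -0.30 (SE 0.16). For Arpp21 the value was -0.18 without replicate 3. Direct pathway genes had 7 of 11 positive (median 0.02) and indirect pathway genes 4 of 10 (median -0.03). Without replicate 3 the direct pathway had 7 of 11 (median 0.05) and the indirect pathway turned to 7 of 10 (median 0.04). Penk, the enkephalin precursor of indirect pathway neurons, stood at 822, 995, 338 and 637 CPM in KI-96 and 712 to 1169.8 CPM in WT. Its log2 fold change of -0.38 (SE 0.22) was -0.15 without replicate 3. Of the direct pathway genes Reln, a secreted matrix protein, had 0.32 (SE 0.18), and 0.18 without replicate 3.

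Genes known to lose RNA in Huntington model striatum were described next, because they are the usual readout of such mice. Of 37 tested, 13 had positive and 24 negative fold changes, and the median was -0.10. Without replicate 3 the count was 20 of 37 positive and the median 0.02. The member with the smallest p was Polr2a, the largest subunit of RNA polymerase II, at 100, 104, 108 and 92.1 CPM against 66.4 to 90.0 CPM in WT (log2 fold change 0.39, SE 0.10). All 4 KI-96 libraries were above WT. Slc4a11, a membrane transporter, had -0.66 (SE 0.25) and Ddit4l, an inhibitor of mTOR signalling, -0.69 (SE 0.27), the latter with 5.13 CPM in replicate 3 and 12.5 to 21.7 CPM in the other KI-96 libraries. Without replicate 3 Ddit4l had -0.42. Of 29 silenced developmental regulators, 8 were tested and 6 of them were positive (median 0.34, and 7 of 8 with a median of 0.34 without replicate 3). Thalamic, pallidal and habenular markers moved with this list. Its mean log2 CPM was 1.82, 1.91, 2.81 and 3.53 in KI-96 replicates 1 to 4, where that of those markers was 2.90, 2.74, 3.88 and 4.92. Their part in the result was not tested. Shox2, a homeobox gene in both lists, had the highest fold change of each, 1.63 (SE 1.18). Lhx9, a homeobox gene, had 1.09 and 3.16 CPM in replicates 3 and 4 and 0.145 and 0.0658 CPM in replicates 1 and 2, with WT from 0 to 1.19 CPM. Dlx1, a homeobox gene that striatal neurons keep on, stood at 16.4, 19.4, 14.4 and 18.2 CPM against 20.1 to 29.2 CPM, a log2 fold change of -0.52 (SE 0.16, edgeR adjusted p = 0.343).

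Genes that act on the repeat or its translation had medians near 0. Mismatch repair and repeat instability genes had 7 of 19 positive with a median of -0.03 (5 of 19 and -0.04 without replicate 3), and 0 had an unadjusted p under 0.05 in either fit. Factors linked to repeat-associated translation had 10 of 20 positive with a median of -0.0020 (10 of 20 and -0.0074 without replicate 3). The translation factors Eif4b and Eif2d had log2 fold changes of 0.26 (SE 0.10) and -0.21 (SE 0.10), with edgeR adjusted p-values of 0.391 and 0.449.

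Clustered protocadherins, adhesion proteins that give single neurons a molecular identity, were positive in 54 of 55 tested members, with a median of 0.34. Of these, 21 had an unadjusted p under 0.05, all of them with higher levels. The mean log2 CPM of the list was 3.21, 2.95, 3.37 and 2.52 in KI-96 and 2.36 to 2.86 in WT. Replicates 1, 2 and 3 lay above WT, and replicate 4 lay within it. Without replicate 3 the counts were 50 of 55 positive, a median of 0.24 and 6 members under 0.05. Pcdhga5 stood at 16.8, 15.1, 17.0 and 10.7 CPM against 8.00 to 12.7 CPM (log2 fold change 0.51, SE 0.15, edgeR adjusted p = 0.313). Pcdhga11 had 0.60 (SE 0.18) and Pcdhga2 0.61 (SE 0.19). The clusters share exons and promoters lie close together, so these members are not independent. The list mean of E1, 2.45 to 2.74, was inside the WT range.

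Genes of protein synthesis, protein clearance and respiration turned on replicate 3. Of 54 cytosolic ribosomal proteins 26 were positive with all libraries (median -0.02), and 42 were positive without replicate 3 (median 0.14), 19 of them at an unadjusted p under 0.05. Their mean log2 CPM was 7.35, 7.08, 6.46 and 7.28 in KI-96 and 7.00 to 7.17 in WT. Replicates 1 and 4 lay above WT and replicate 3 below it. E1 was also above WT, at 7.18 to 7.25. Rps27 went the other way, at 158, 117, 87.2 and 199 CPM against 171 to 243 CPM (log2 fold change -0.53, SE 0.17), and Rpl35 stood at 22.6, 38.9, 6.66 and 18.2 CPM against 4.38 to 15.1 CPM. Nuclear-encoded respiratory chain subunits had 10 of 42 positive (median -0.10) and, without replicate 3, 27 of 42 (median 0.04). Proteasome subunits had 12 of 31 positive (median -0.02) and, without it, 24 of 31 (median 0.11). Psmc1, an ATPase of the proteasome cap, had 0.29 (SE 0.10), while its partner Psmc6 had -0.23 (SE 0.08) and the core subunit Psma4 -0.37 (SE 0.13), which was -0.21 without replicate 3. In replicate 3 the mean of the respiratory chain list was 5.91 against 6.63 to 6.89 in the other 14 libraries.

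**Figure D4:**
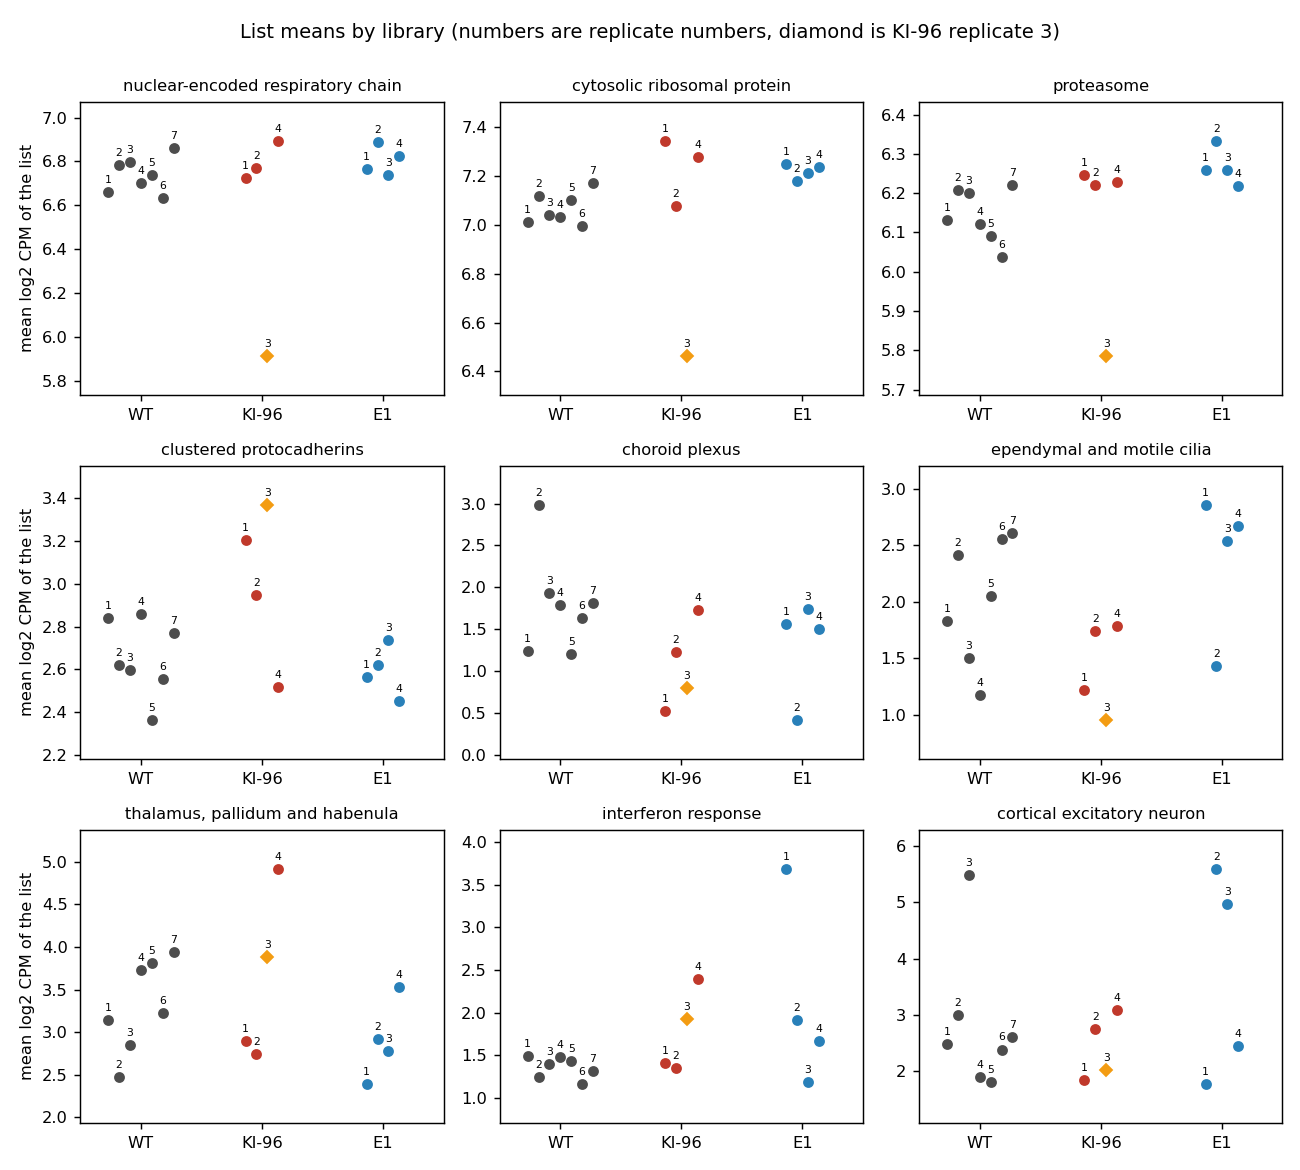
Mean log2 CPM of 9 gene lists in each library, by genotype and replicate number. In KI-96 replicate 3 (diamond) the respiratory chain, ribosomal and proteasome lists are the lowest of all libraries. Thalamic markers peak in KI-96 replicate 4 at 4.92, and cortical markers are high in WT replicate 3 at 5.48.

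Cholesterol synthesis genes had negative fold changes in 20 of 24 tested members, with a median of -0.16, and 5 had lower levels at an unadjusted p under 0.05. In 3 of the 24 every KI-96 library lay below every WT library, against 0.652% of all autosomal genes. Without replicate 3 this again held for 3 of the 24, against 1.95%. Idi1, which isomerizes isopentenyl pyrophosphate, stood at 8.00, 10.1, 8.41 and 9.49 CPM against 11.2 to 15.6 CPM. It had a log2 fold change of -0.56 (SE 0.13, edgeR adjusted p = 0.246). Cyp51, the lanosterol demethylase, stood at 41.9, 43.2, 37.0 and 42.7 CPM against 47.0 to 53.8 CPM (-0.32, SE 0.08, adjusted p = 0.296). Msmo1, the next sterol oxidase of the pathway, had -0.36 (SE 0.12). Without replicate 3, 18 of 24 were negative and the median was -0.13, with 3 members lower at that p. With the Y-linked covariate it was 0.03. Myelin genes, whose cells make much sterol, had 16 of 22 negative (median -0.10) and, without replicate 3, 13 of 22 (median -0.02). Ugt8a, which makes the myelin lipid galactocerebroside, had -0.52 (SE 0.22), Tspan2, a membrane protein of oligodendrocytes, -0.42 (SE 0.18) and Aspa, which breaks down N-acetylaspartate, -0.59 (SE 0.27).

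Lists of other glia and of vessels had medians from -0.05 to 0.21 with all libraries and from 0.0038 to 0.24 without replicate 3. Homeostatic astrocyte genes had 8 of 18 positive (median -0.05) and, without replicate 3, 10 of 18 (median 0.0038). Reactive astrocyte genes had 14 of 28 positive (median -0.0016) and, without it, 16 of 29 (median 0.06). Homeostatic microglia genes had 8 of 18 positive (median -0.0038) and, without replicate 3, 12 of 18 (median 0.21), 5 with higher levels at an unadjusted p under 0.05. That library held 1.64 CPM of Tyrobp, an adaptor of microglial receptors, against 10.0 to 16.2 CPM in the other 14 libraries. Activated microglia genes had 4 of 14 positive (median -0.05) and, without replicate 3, 9 of 14 (median 0.03). Oligodendrocyte precursor genes had 8 of 13 positive (median 0.10), endothelial genes 10 of 15 (median 0.13), and mural cell and meningeal fibroblast genes 16 of 19 (median 0.21). Without replicate 3 these were 10 of 13 (median 0.23), 12 of 15 (median 0.18) and 16 of 19 (median 0.24). Col3a1 and Col1a2, fibrillar collagens of the last list, had 0.85 (SE 0.27) and 0.54 (SE 0.19). The endothelial and mural medians were -0.32 and -0.01 with the Y-linked covariate.

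Markers of tissue that borders the striatum differed between single libraries. Thalamic, pallidal and habenular genes had 13 of 14 positive (median 0.46, and again 13 of 14 with a median of 0.59 without replicate 3). Tcf7l2, a transcription factor of thalamic neurons, stood at 8.51, 7.96, 25.8 and 39.1 CPM in KI-96 and 6.23 to 13.6 CPM in WT. Rgs16 stood at 27.2 CPM in replicate 4 and 2.57 to 6.39 CPM in the other KI-96 libraries, and its log2 fold change of 1.14 (SE 0.49) was -0.18 without replicate 4. Choroid plexus genes had 1 of 15 positive (median -0.81) and ependymal genes 0 of 16 (median -0.54), and without replicate 3 these were 0 of 15 (median -0.64) and 0 of 16 (median -0.50). Ttr, the transthyretin of the choroid plexus, stood at 7.35, 21.1, 3.28 and 60.5 CPM against 20.1 to 346 CPM. Tekt1, a tubulin-bound protein of motile cilia, stood at 0.946, 0.921, 1.20 and 2.12 CPM against 2.00 to 3.78 CPM. The summed level of the choroid plexus list was 273 to 430 CPM in KI-96 and 353 to 942 CPM in WT, and that of the ependymal list 47.8 to 79.1 and 48.9 to 120 CPM, so the groups overlapped. Cortical excitatory neuron genes had 4 of 15 positive (median -0.88) and, without KI-96 replicate 3, 3 of 15 (median -0.67). With all KI-96 libraries the median was 0.21 without WT replicate 3, where the list mean was 5.48 against at most 3.01 in the other WT libraries. Septal and hypothalamic genes had 8 of 15 positive (median 0.06) and, without replicate 3, 7 of 15 (median -0.07). Blood genes had 1 of 4 positive (median -0.31, and 1 of 4 with -0.26 without replicate 3). The part of dissection in these lists was not tested.

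Interferon response genes had 27 of 30 positive with a median of 0.50, and 2 members had an unadjusted p under 0.05. Without replicate 3, 26 of 30 were positive with a median of 0.42, and 0 members had such a p. E1, set against the same WT libraries, had a median of 1.13 and list means from 1.18 to 3.69. The mean log2 CPM of the list was 1.41, 1.35, 1.93 and 2.40 in KI-96 and 1.16 to 1.49 in WT. Replicates 3 and 4 lay above WT, and replicates 1 and 2 within it. Irf7, a transcription factor of that response, stood at 1.58, 1.91 and 3.75 CPM in replicates 2, 3 and 4, above the 0.499 to 1.41 CPM of WT, and within that range in replicate 1 (log2 fold change 1.30, SE 0.59, edgeR adjusted p = 0.455). Usp18, which damps the interferon receptor, had 1.47 (SE 0.65). Lgals3bp, a secreted glycoprotein that interferon induces, had 0.52 (SE 0.26).

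Immediate early genes, which neurons switch on with activity, had 9 of 34 positive (median -0.13) and, without replicate 3, 13 of 34 (median -0.10). Their mean log2 CPM in KI-96, 4.42 to 5.02, overlapped the 4.65 to 5.16 of WT. Dusp1, a phosphatase of MAP kinases, had -0.44 (SE 0.17), whereas Dusp4, of the same family, had 0.57 (SE 0.23) and Spry4, an inhibitor of receptor tyrosine kinase signalling, 0.38 (SE 0.13). Spry4 lay above WT in all 4 KI-96 libraries, at 9.61 to 13.6 against 7.11 to 9.52 CPM. Glucocorticoid response genes had 3 of 15 positive (median -0.33, and 2 of 16 with -0.21 without KI-96 replicate 3), with WT replicate 2 high in the list at 5.39 against 4.53 to 4.84 in the other WT libraries. Circadian clock genes had 8 of 17 positive (median -0.01, and 7 of 17 with -0.03 without replicate 3). Per3, a clock repressor, had -0.37 (SE 0.13).

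Stress and repair lists had medians from -0.07 to 0.06 with all libraries and from -0.04 to 0.12 without replicate 3. Endoplasmic reticulum and integrated stress genes had 21 of 33 positive (median 0.06), with Hyou1, a chaperone of that compartment, at 0.42 (SE 0.15). Cytosolic chaperones had 18 of 31 positive (median 0.02), autophagy and lysosome genes 10 of 27 (median -0.03), p53 response genes 7 of 20 (median -0.07), and nuclear transport genes 14 of 30 (median -0.02). Without replicate 3, endoplasmic reticulum and integrated stress genes had 27 of 33 positive (median 0.12), chaperones 21 of 31 (median 0.11) and autophagy and lysosome genes 19 of 27 (median 0.07). In that fit p53 response genes had 8 of 20 (median -0.03) and nuclear transport genes 13 of 30 (median -0.04). Hspa1b, the inducible heat shock protein, ranged from 0.365 to 37.4 CPM within WT alone. Becn1, which starts autophagosome formation, stood at 66.7, 68.7, 68.3 and 63.0 CPM against 45.5 to 64.0 CPM, a log2 fold change of 0.30 (SE 0.09, edgeR adjusted p = 0.343).

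Synaptic lists were followed for both sides of the synapse. Glutamate receptor and postsynaptic genes had 20 of 26 positive (median 0.11) and, without replicate 3, 16 of 26 (median 0.07). Dlgap3, a scaffold of striatal synapses, stood at 915, 1040.4, 879 and 799 CPM against 469 to 878 CPM, a log2 fold change of 0.42 (SE 0.16). Gria1, an AMPA receptor subunit, had 0.32 (SE 0.12), and Grin2b, an NMDA receptor subunit, had 0.43 (SE 0.19). Those values were 0.18 for each without replicate 3. Presynaptic release genes had 13 of 21 positive (median 0.02) and, without it, 11 of 21 (median 0.0044). Cholinergic interneuron genes had 8 of 10 positive (median 0.06, and 8 of 10 with 0.19 without replicate 3). Slc18a3, the vesicular acetylcholine transporter, had 0.41 (SE 0.20), while Chat, which makes acetylcholine, had -0.13 (SE 0.13), and -0.04 without replicate 3. GABAergic interneuron genes had 5 of 15 positive (median -0.04) and turned to 9 of 15 (median 0.02) without replicate 3. Npy, a peptide of these cells, stood at 17.1, 33.5, 5.08 and 40.2 CPM in KI-96 and 28.5 to 58.3 CPM in WT. Nos1, the neuronal nitric oxide synthase of the same cells, had 0.33 (SE 0.13) where Npy had -0.86 (SE 0.39). Without replicate 3 these were 0.22 and -0.52.

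**Figure D5:**
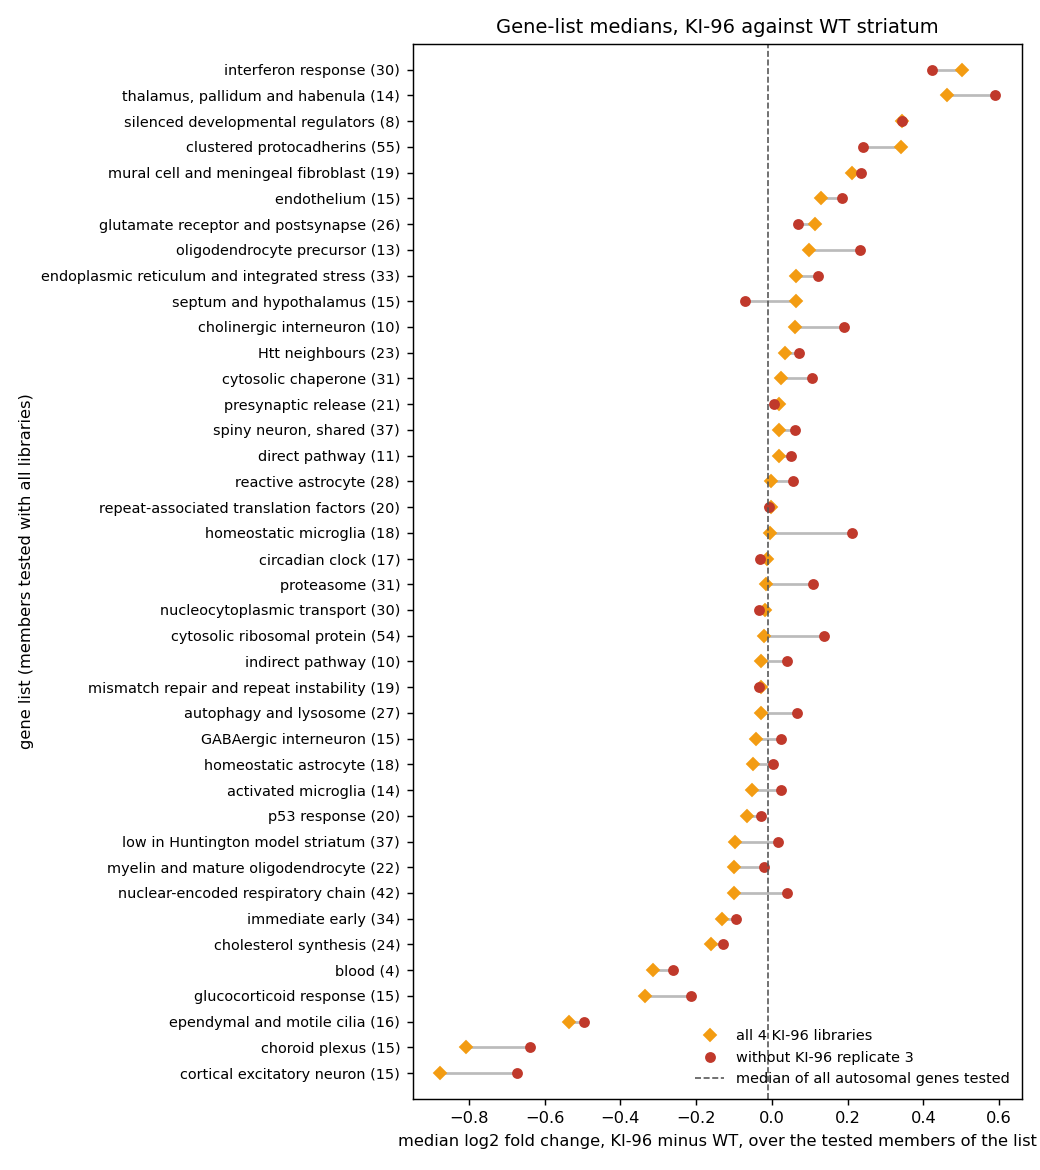
Median log2 fold change of KI-96 minus WT for each of the 40 lists, with all 4 KI-96 libraries (diamonds) and without replicate 3 (circles), beside the median of all autosomal genes (dashed line, -0.01). With all 4 libraries medians run from -0.88 for cortical markers to 0.50 for interferon genes, and without replicate 3 from -0.67 for cortical to 0.59 for thalamic, pallidal and habenular markers.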

How the data were processed

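Striatal RNA libraries of 7 WT, 4 KI-96 and 4 E1 mice were analysed from the authors' deposited table of raw read counts per gene, which carries no normalization. Without stating roles, the submitters' processing notes list DESeq2 1.24.0, HTSeq and STAR, and GRCm38 as the build. The sources used here give neither the annotation release nor the use of strand in counting, so pseudogenes, gene copies and overlapping genes are uncertain. Symbols and positions come from GENCODE M21 (GRCm38), which matched 54165 of 54232 identifiers without their version.

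Genes were filtered with edgeR 4.0.16 (minimum count 10), scaled with the trimmed mean of M-values and tested two-sided with its robust quasi-likelihood model over all 15 libraries, group as the single factor. Benjamini-Hochberg adjustment covered all 18278 genes tested (18539 without KI-96 replicate 3), with a threshold of 0.05. CPM used normalized library sizes, and log2 CPM a prior count of 2. Library totals ran from 14678565 to 26388542. Library pairs within WT and within KI-96 (27 pairs) differed beyond sampling noise (chi-square per degree of freedom at least 7.78).

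The members and the gene lists were chosen with earlier results of these data known. Named were Htt, the 10 genes with the smallest p in each direction where fewer than 5 passed (mean level 1 CPM or more, no predicted genes), and up to 3 members per list by smallest p. For KI-96 replicate 3, genes came from the 10 highest and 10 lowest relative to the other KI-96 libraries. Liver genes, the Tmem181 and Catspere copies, Fgg and Shox2 were chosen after their values were seen. Alternatives were DESeq2 1.42.0, limma-voom and library quality weights in limma 3.58.1, other scaling and filters, fewer libraries, a replicate block and a Y-linked covariate. The scripts were tested on simulated data. Results for 2 of the list members so named are not reported here.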

Additional observations from a re-analysis of the deposited data

Results flagged for a closer look

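Of 154 sets of 4 or 7 libraries checked, 17 (11%) had a highest or lowest library far from the rest. The cut-off is set for about 1 in 20 in a single set of independent values. These sets share libraries, and some are genes picked from the fit without KI-96 replicate 3, so the share is not a test. In KI-96 replicate 3 these were homeostatic microglia genes (list mean log2 CPM 4.09 against 4.95 to 5.10 in the other KI-96 libraries), proteasome subunits (5.79 against 6.22 to 6.25) and autophagy and lysosome genes (6.20 against 6.54 to 6.57). Catspere2 (12.2 against 4.54 to 5.53 CPM) and Lnpk (54.2 against 33.0 to 35.1 CPM) were far higher in it, and both are among the genes picked without it. In KI-96 replicate 4, Apoa1 (7.54 against 0.0546 to 0.946 CPM), Tcp11l2 (15.4 against 12.1 to 12.6 CPM) and blood genes (4.51 against 3.89 to 3.98) stood high, and nuclear transport genes stood low (5.52 against 5.65 to 5.68). In KI-96 replicate 2, factors linked to repeat-associated translation stood low (6.34 against 6.52 to 6.55).

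Among WT libraries, replicate 2 stood apart in choroid plexus genes (2.99 against 1.20 to 1.93), glucocorticoid response genes (5.39 against 4.53 to 4.84), circadian clock genes (6.29 against 5.89 to 6.06) and Apoa1 (0.646 against 0.156 to 0.353 CPM). WT replicate 3 stood apart in cortical genes (5.48 against 1.81 to 3.01) and presynaptic release genes (8.90 against 8.40 to 8.57), and WT replicate 6 in Med16 (51.0 against 59.4 to 63.5 CPM).

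Among Htt and the genes named for the smallest p, Alb was the one that differed between KI-96 and E1 by the test of that difference. It had a log2 fold change of 8.27 without KI-96 replicate 3 (edgeR adjusted p = 0.00522). It passed the filter on low counts through the KI-96 libraries alone, so a difference was required for it to be tested.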

How the results depend on the processing

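With all 4 KI-96 libraries the counts of autosomal genes past the threshold (0 higher, 0 lower) became 30 and 32 by DESeq2, 1 and 2 with library quality weights, 0 and 1 with no filter, 1 and 1 with the replicate block, 0 to 1 and 0 to 2 on leaving out 1 library in turn (1 and 2 without WT replicate 1, 1 and 1 without KI-96 replicate 3, 0 and 2 without KI-96 replicate 4). The counts under the other settings were 0 and 0. Replicate numbers did not pair the libraries: same-numbered WT and KI-96 libraries had correlations of -0.031, 0.183, -0.027 and -0.069, and 1 of 4 KI-96 libraries correlated best with its own number. The 2 genes called with the block were Rpl3 and Catspere1, and that block moved the blood median to 0.14. Without replicate 3 the counts (1 and 1) became 66 and 37 by DESeq2, 0 and 1 by limma-voom, 1 to 8 and 0 to 4 on leaving out another KI-96 library, and, in 2 settings chosen after seeing the data, 0 and 0 with the Y-linked covariate and 2 and 3 without WT replicate 1. Htt turned to -0.069 with the covariate and ran from -0.084 (without KI-96 replicate 3) to 0.17 on leaving out 1 library in turn, and to 0.018 without KI-96 replicates 3 and 4. Quality weights moved the Htt neighbours to 0.083 and turned Lhx9 (-0.079), Lpl (-0.065) and H2-Aa (0.10). The Y-linked covariate, which rests on WT replicate 1, moved the medians of indirect pathway (-0.24), mismatch repair (0.074), oligodendrocyte precursor (-0.078), endothelial (-0.32), mural (-0.013), choroid plexus (-0.13), blood (0.26), endoplasmic reticulum stress (-0.13), cholesterol (0.029), postsynaptic (-0.058) and glucocorticoid (0.0033) lists. It turned Gnal (-0.0012), Reln (-0.038), Irx3 (-0.16), Exo1 (0.31), Mlh3 (-0.019), Slc17a8 (-0.10), Cspg4 (-0.070), H2-Aa (0.13), Cdh5 (-0.22), Flt1 (-0.38), Cldn5 (-0.45), Prph (0.18), Zic1 (-0.30), Hbb-bs (0.064), Hba-a1 (0.28), Grin2b (-0.0037), Nr3c2 (-0.039), Sgk1 (0.0033), Per3 (0.067) and Ciart (0.017). On leaving out 1 library in turn, the cortical median ran from -1.42 to 0.21 and H2-Aa from -0.88 to 0.0034 (both highest without WT replicate 3), Lpl from -0.078 (without KI-96 replicate 3) to 0.62, and Rgs16 from -0.18 (without KI-96 replicate 4) to 1.45. The cause of these changes was not tested. Of the list medians 786 of 800 alternatives stayed within the spread between replicates. That spread, a standard deviation pooled over WT and KI-96, includes KI-96 replicate 3, so the count does not show that the medians are stable. The respiratory chain median, -0.10 with that library and 0.04 without it, stayed within its spread of 0.27. Depth limits genes such as Alb and Catspere1, whose levels rest on few reads.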

Other observations

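Some of the 66 genes that DESeq2 called higher without KI-96 replicate 3, picked by hand after their values were seen, were Rps16 (log2 fold change 0.33), Rpl23a (1.01), Ndufb8, a subunit of complex I (0.47), and Aldh2, a mitochondrial aldehyde dehydrogenase (0.33). Gpr37l1, a receptor of astrocytes (0.27), and Aldoc, their aldolase (0.24), were also among them, and Polq, a polymerase of DNA break repair (-0.67), and Ccne2, cyclin E2 (-0.57), were among the 37 called lower. None of these passed by edgeR.

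Some pseudogenes had 2 levels across mice with no relation to the labels. Rpl34-ps1 stood at 18.0, 39.5 and 25.5 CPM in WT replicates 1, 3 and 4 and at 17.4 CPM in KI-96 replicate 4, and at 0.109 to 1.31 CPM in every other library. Atp6v0c-ps2 stood at 34.6 to 115 CPM in 5 WT libraries, at 64.2 CPM in KI-96 replicate 1 and at 50.2 to 66.0 CPM in 3 E1 libraries. In the other 6 libraries it was at 0.328 to 1.25 CPM.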
